A study of Mus musculus with 8 samples.

Results

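Complement and coagulation factors are plasma proteins that the liver secretes, and 42 of their genes were followed by symbol through 4 groups of mouse liver. The list holds complement components and regulators, clotting factors, fibrinogen, and anticoagulant or fibrinolytic proteins. All 42 symbols were found among the 22923 symbols in the files, and all reached at least 1 RPKM (read density over a transcript, corrected for its length and for library size) in at least 1 group. The study crossed 2 genotypes with 2 diets on the C57BL/6 strain. Controls carried the Xbp1flox genotype, and the others were Xbp1-/- in liver, called knockout here. For 4 weeks the mice received chow or high-fat food given with a corn syrup equivalent high in fructose. This makes 4 groups, flox on chow and on high fat and knockout on chow and on high fat, and values given in a row follow that order. Each group had 4 mice pooled into 2 libraries and is represented by 1 deposited value per gene. The Cre line, and the sex and age of the mice, are not given by the labels. No value has a replicate, so no difference has a test or an error. The words rose and fell mark a log2 change of at least 1 (2-fold), computed with 1 RPKM added to both levels.

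Complement is a chain of proteases that ends in a pore. The classical and lectin routes cleave C4 and C2, the alternative route runs on factor B and factor D, both meet at C3, and C5 to C9 then build the membrane attack complex. Coagulation is a second chain of proteases, in which the contact and tissue factor routes meet at factor X, thrombin cuts fibrinogen to fibrin, and plasmin later dissolves the clot. Most of these proteins are glycosylated and disulfide-bonded in the endoplasmic reticulum (ER) of hepatocytes before secretion. Xbp1 encodes a transcription factor that, once activated by ER stress, raises the folding and export capacity of that compartment.

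Xbp1 itself stood at 112 and 90.7 RPKM in flox livers on chow and high fat, and at 44.2 and 34.1 RPKM in knockout livers. The summed values differed between groups, from 513694 RPKM in flox chow to 367414 in knockout high fat, so changes on the high-fat diet depend on how groups are scaled. The median log2 change of all genes was -0.13 for knockout against flox on the high-fat diet and -0.02 on chow. Summed hepatocyte markers (11 genes) were high in every group, at 31115, 27897, 20935 and 16523 RPKM, and like the 42 genes were lower in knockout livers. Alb was listed at 0 throughout, and Serpina1a at 0 in all groups but knockout high fat (1858 RPKM). The other 9 had median knockout changes of -0.28 on chow and -0.51 on high fat, among them Apoa1 (-0.73 and -1.23), Cyp2e1 (-1.20 and -1.63) and Cps1 (-0.14 and -1.04). Ttr, Ass1, Hnf4a and Trf were also lower on both diets. Pck1 was higher in knockout livers (0.75 and 0.27), and Tat was lower on chow (-0.40) and higher on high fat (0.14). Summed macrophage markers (10 genes) ranged from 234 to 283 RPKM in 3 groups and were 390 RPKM in knockout high fat. Summed cholangiocyte markers (7 genes) were 22.0, 23.2, 42.9 and 110 RPKM, highest again in the last group. That sum was mostly Spp1, at 19.7, 20.6, 39.4 and 103 RPKM, so it says little about the rest of the list. No other marker of the list passed 2.01 RPKM (Epcam, knockout high fat). Summed stellate cell markers (7 genes) were 16.3, 22.0, 20.8 and 40.1 RPKM, and Col1a1 (1.21) and Col3a1 (1.23) rose in knockout livers on high fat. These markers move with the groups, and their part in the results was not tested. In bulk liver, fewer hepatocytes and less RNA per hepatocyte cannot be told apart.

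The genes were abundant in flox livers and lower, as a set, in knockout livers. Leaving aside Cfd, levels in flox chow ran from 14.1 RPKM (Pros1) to 1770 RPKM (Fgb), with a median of 229 RPKM over 41 genes. That median was 234 RPKM in flox high fat, 127 RPKM in knockout chow and 117 RPKM in knockout high fat. As a share of the summed RPKM of the 15155 genes above 0 in every group, which does not depend on scaling between groups, the 42 genes held 3.27% in flox chow and 3.30% in flox high fat. In knockout livers they held 2.49% on chow and 2.68% on high fat. These shares also depend on the other genes in the sum, such as the hepatocyte markers.

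**Figure D1:**
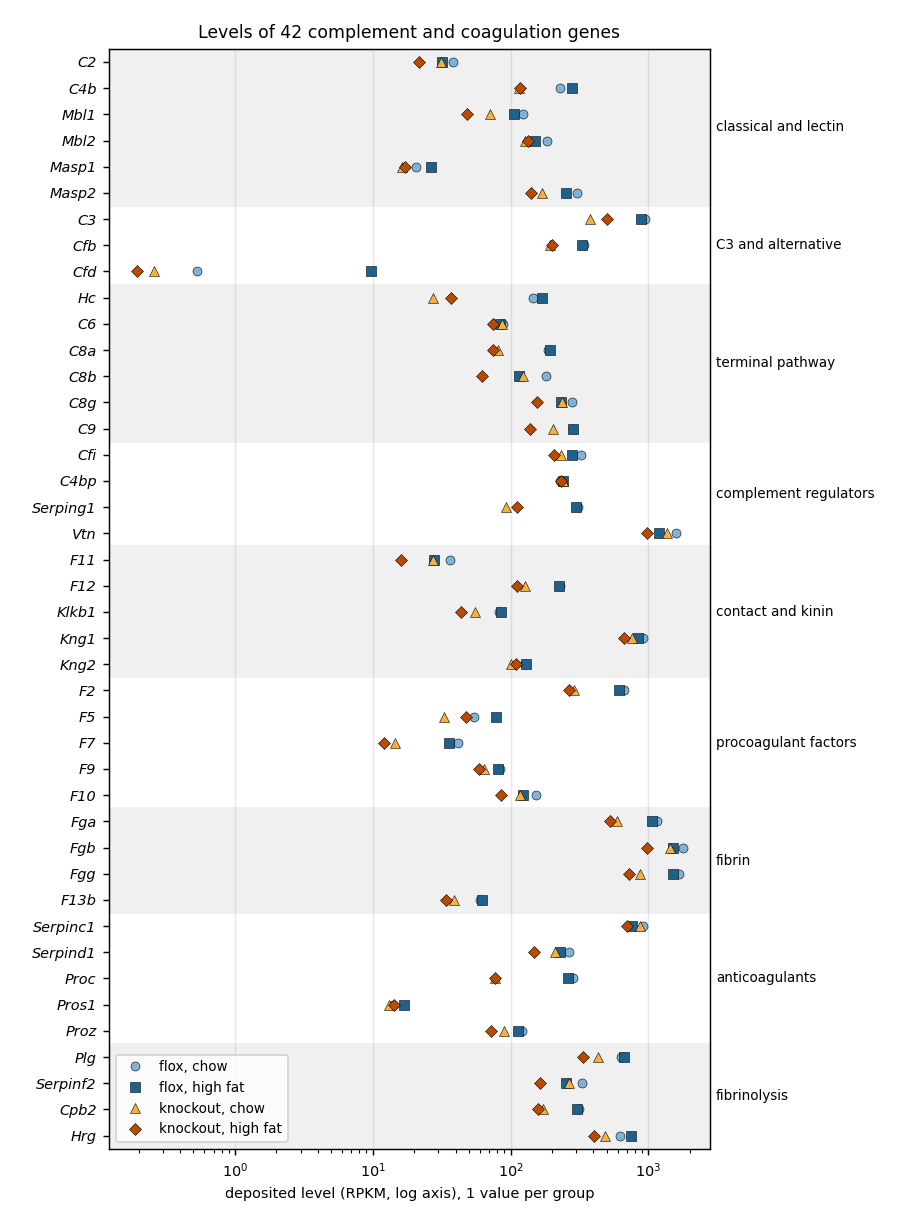
Deposited level of each of the 42 genes (x axis, RPKM, log scale) in the 4 groups, 1 point per group, ordered by cascade on the y axis. Points of both knockout groups lie left of both flox groups for most genes, among them Hc, Serping1, Proc, F2 and F7. The 4 points of C4bp lie between 229 and 242 RPKM.

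On chow, 7 of 42 genes fell in knockout livers and 0 rose. They were Hc, Proc, Serping1, F7, C3, F2 and C8a. Among all 10322 genes compared, 1.37% fell and 0.252% rose, and 2.86% of those with 10 RPKM or more in some group fell. The median change of the 42 was -0.50, and 41 of them had a lower level in knockout than in flox livers (40 and 38 under the rescalings described next). Of all genes, 54.2% were lower (64.8% of those with 10 RPKM or more, and 46.9% and 27.7% when rescaled). On the high-fat diet 12 of 42 fell and 0 rose, with a median of -0.78 and a lower knockout level for all 42 (38 and 35 when rescaled). Of all genes, 70.1% were lower on this diet (83.2% of those with 10 RPKM or more, and 49.7% and 32% when rescaled). In that comparison 1.86% of all 10327 genes fell and 1.07% rose, and 3.87% of those with 10 RPKM or more fell. Of the 41 members with 10 RPKM or more in some group, a set without Cfd, 11 fell. The 12 comprised Cfd, Hc, Proc, F7, Serping1, C8a, C4b, F2, Mbl1, Fgg, C9 and Plg. Rescaling each group to a median ratio of 0 left 8 of these 12 (1.2% of all genes fell), and rescaling to equal sums without the 50 most abundant genes left 6 (0.872% of all genes fell), namely Cfd, Hc, C8a, Serping1, F7 and Proc. On this diet the falls of Mbl1, Fgg, C9 and Plg were lost under both rescalings, and those of C4b (-0.94) and F2 (-0.88) under the second.

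The pair of diet comparisons of genotype share no group. Of the genes that fell, 6 did so on both diets (Hc, Proc, Serping1, F7, F2 and C8a), which is 85.7% of the chow list and 50% of the high-fat list. Across the 42 genes, which share their libraries, the changes on the 2 diets were ordered alike (Spearman's rho 0.78, given as a description, against 0.55 over all genes). All genes here had 1 RPKM or more in some group, whereas 41 of the 42 had at least 10 RPKM in every group. These rho values are therefore not like for like. Against transcript length the change had a rho of 0.06 on chow and 0.13 on high fat (41 genes without Cfd), and against the level in flox chow a rho of -0.09 and -0.09.

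**Figure D2:**
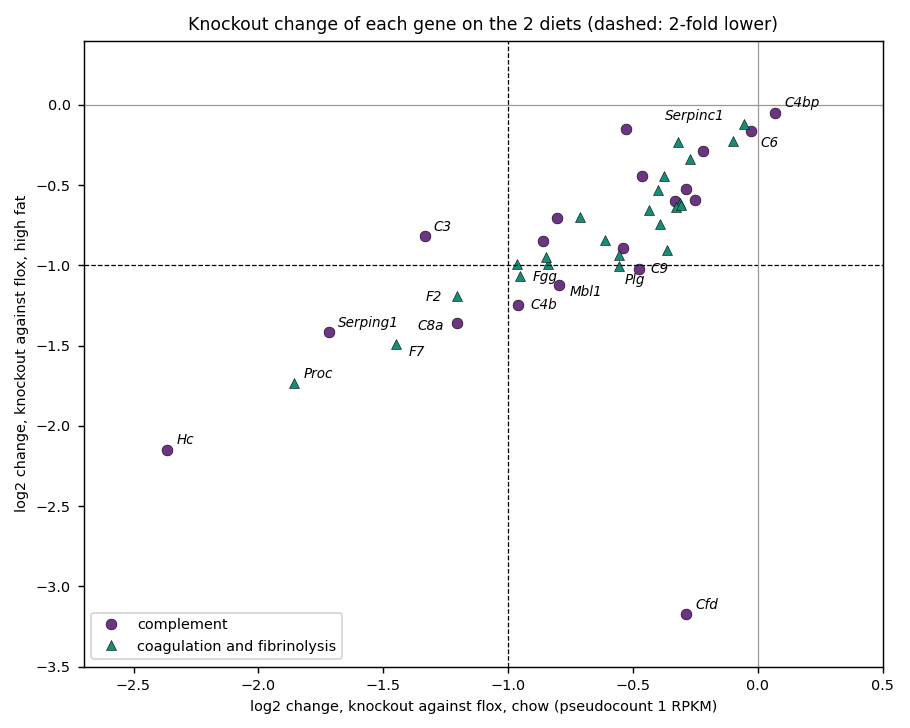
Log2 change of each gene in knockout against flox livers on chow (x axis) and on high fat (y axis), with complement genes as circles and coagulation and fibrinolysis genes as triangles. Hc, Proc, Serping1, F7, F2 and C8a lie beyond the dashed 2-fold lines on both axes, C3 beyond the chow line alone, and Cfd far down on the high-fat axis alone.

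Genes of the terminal pathway held the furthest fall on chow. Hc, the mouse gene of complement C5, whose cleavage starts the pore, lies on mm10 chromosome 2, 34983331 to 35061438. Its level was 146 and 168 RPKM in flox livers on chow and high fat, against 27.6 and 37.1 RPKM in knockout livers. Both knockout groups were thus low, at 18.9% of the flox level on chow (log2 change -2.36) and 22.1% on high fat (-2.15). It was the 13th lowest change of 10322 genes on chow and the 15th lowest of 10327 on high fat. C6, which binds activated C5 next, stood at 87.8, 84.0, 86.1 and 75.0 RPKM in the same order of groups, with changes of -0.03 and -0.16. Measured against C6 in the same group, Hc was 1.66 and 2.004 times as abundant in flox livers and 0.320 and 0.495 times in knockout livers, per length. C9, the subunit that lines the pore, was at 285, 283, 205 and 138 RPKM, with changes of -0.48 on chow and -1.02 on high fat.

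The chains of C8, which joins the growing pore as 1 protein of 3 chains, did not keep their proportions. C8a, the alpha chain (chromosome 4, 104815679 to 104876398), was at 188 and 193 RPKM in flox livers on chow and high fat, and at 80.9 and 74.4 RPKM in knockout livers. Its knockout changes were -1.205 and -1.36. C8b, the beta chain, whose gene lies 11.1 kb from C8a, was at 181, 115, 124 and 61.8 RPKM. It was lower with the high-fat diet in both genotypes, by -0.64 in flox and -0.99 in knockout livers, and its knockout changes were -0.54 and -0.89. C8g, the gamma chain, was at 281, 234, 236 and 155 RPKM, with knockout changes of -0.25 and -0.59. The ratio of C8a to C8b was 1.04 in flox chow and 0.652 in knockout chow, and 1.67 and 1.204 on the high-fat diet.

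C3, the component all routes converge on, fell in knockout livers on chow and not past the threshold on high fat. C3 lies on chromosome 17, 57203970 to 57228136. It was at 949 and 888 RPKM in flox livers on chow and high fat, and at 376 and 504 RPKM in knockout livers. The knockout level was 39.6% of flox on chow (-1.33) and 56.7% on high fat (-0.82), and the difference between these changes was 0.52, with no test. Factor B, Cfb, the protease of the alternative route, was at 340, 330, 195 and 202 RPKM, with changes of -0.80 and -0.71.

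Factor D, Cfd, which cleaves factor B and is known as adipsin from fat tissue, had a pattern unlike the rest. Its level was 0.533 RPKM on chow and 9.76 RPKM on high fat in flox livers, and 0.257 and 0.193 RPKM in knockout livers. Flox high fat alone was high, and the other 3 groups lay below 1 RPKM. Cfd (chromosome 10, 79890853 to 79892655) rose with the diet in flox livers (log2 change 2.81) and changed by -0.07 in knockout livers. It was therefore at 1.98% of the flox level in knockout livers on high fat (-3.17). Flox high fat was the only group in which Cfd passed the 1 RPKM filter, so Cfd is not ranked among all genes. Of 9 adipocyte markers beside it, Lep was listed at 0 in all 4 groups, and Adipoq, Retn and Plin1 were under 0.1 RPKM in each. Fabp4 stood between 9.59 and 11.5 RPKM. Cidec, a lipid droplet gene, was the 1 marker of the list with its top value in flox high fat by a wide margin, at 3.74 RPKM against 0.989 to 1.44 elsewhere. The list's sum ranged from 981 to 2763 RPKM and was mostly Car3, which hepatocytes also express.

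**Figure D3:**
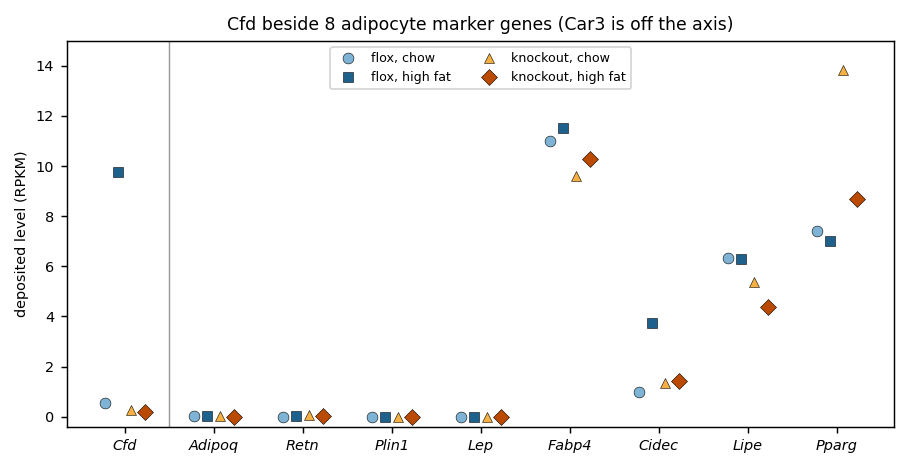
Deposited level (y axis, RPKM) of Cfd and of 8 adipocyte marker genes in the 4 groups, 1 point per group. Cfd is at 9.76 RPKM in flox high fat and under 1 RPKM elsewhere, while Adipoq, Retn, Plin1 and Lep lie at or near 0 in every group.

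In the classical and lectin routes 0 of 6 genes fell on chow and 2 of 6 on high fat, C4b and Mbl1. Of all genes, 1.37% and 1.86% fell, so a count of 0 among 6 does not set the routes apart. Both falls on high fat depended on scaling. Mbl1 was at -0.96 and -0.82 under the 2 rescalings, and C4b at -0.94 under the second. The medians of the 6 were alike on chow and high fat, -0.66 and -0.72. C4b, which anchors the C3-cleaving enzyme, was at 227 and 279 RPKM in flox chow and high fat and at 116 and 117 RPKM in knockout chow and high fat, with changes of -0.96 and -1.25. Its close copy C4a was at 4.80, 4.87, 3.39 and 1.63 RPKM, and reads of the pair may have been split between them. The sugar-binding lectin Mbl1 was at 123, 106, 70.6 and 48.1 RPKM (-0.80 and -1.13), and its relative Mbl2 at 185, 149, 128 and 135 RPKM (-0.53 and -0.15). The ratio of Mbl1 to Mbl2 was 0.668 in flox chow and 0.357 in knockout high fat. Of the lectin-associated proteases, Masp2 was at 306, 253, 168 and 140 RPKM (-0.86 and -0.85) and Masp1 at 20.7, 26.6, 16.3 and 17.2 RPKM (-0.33 and -0.60). C2, the protease partner of C4, changed by -0.29 and -0.52.

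Complement regulators held 1 fall among 4 genes on each diet. Serping1, the C1 inhibitor, which also restrains kallikrein and factor XII, lies on chromosome 2, 84765387 to 84775444. It was at 306 and 298 RPKM in flox livers on chow and high fat and at 92.4 and 111 RPKM in knockout livers. The changes were -1.72 and -1.42. C4bp, which speeds decay of the C3-cleaving enzyme, was at 229, 242, 240 and 234 RPKM (0.07 and -0.05), the least change of the 42 genes on high fat, while on chow C6 and Serpinc1 changed less. Cfi, the protease that inactivates C3b and C4b, changed by -0.47 and -0.45, and vitronectin, Vtn, which blocks pore insertion, by -0.22 and -0.28.

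Of 5 procoagulant factors, F2 and F7 fell on both diets. F7, the protease that binds tissue factor to start clotting (chromosome 8, 13026034 to 13035809), was at 41.6 and 35.9 RPKM in flox livers on chow and high fat and at 14.6 and 12.2 RPKM in knockout livers. Both knockout levels were near 35% of flox (35.1% and 33.9%, changes -1.45 and -1.49). F10 begins 1.499 kb beyond F7 and encodes the protease at which the routes meet. It was at 154, 124, 116 and 85.4 RPKM, with changes of -0.40 and -0.53, so these neighbours changed by different amounts. Prothrombin, F2 (chromosome 2, 91625320 to 91636414), was at 666 and 612 RPKM in flox and at 288 and 268 RPKM in knockout livers (-1.21 and -1.19). Factor V, F5, the cofactor of factor X, was at 54.4, 77.9, 32.9 and 47.7 RPKM. It was lower in knockout livers (-0.71 and -0.70) and higher on the high-fat diet in each genotype (0.51 and 0.52), all short of 2-fold. F9 changed by -0.38 and -0.44.

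Fibrinogen is built from Aα, Bβ and γ chains, whose genes Fgg, Fga and Fgb lie together on chromosome 3 between 83007724 and 83049863. Fga was at 1152 and 1056 RPKM in flox chow and high fat and at 589 and 530 RPKM in knockout livers, with changes of -0.97 and -0.99. Fgg was at 1682, 1515, 868 and 724 RPKM (-0.95 and -1.06). Fgb was at 1770, 1505, 1426 and 985 RPKM, and its changes were -0.31 on chow and -0.61 on high fat. The Aα and γ genes were thus at 51.2% and 51.6% of flox on chow, and the Bβ gene at 80.5%. Within groups, the ratio of Fga to Fgg stayed between 0.679 and 0.732, while that of Fga to Fgb was 0.651 and 0.702 in flox livers and 0.413 and 0.538 in knockout livers. F13b, the carrier subunit of the fibrin cross-linking factor XIII, changed by -0.61 and -0.84.

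**Figure D4:**
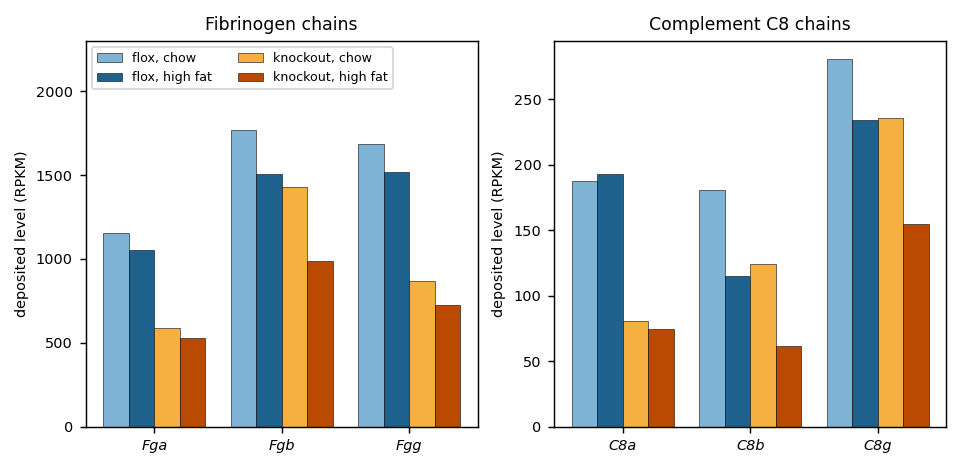
Deposited level (y axis, RPKM) of the 3 fibrinogen chains (left) and the 3 chains of complement C8 (right), with 1 bar per group and no error bars because each group has 1 value. On chow, Fga and Fgg stand at 51.2% and 51.6% of flox in knockout livers where Fgb stands at 80.5%, and C8a stands at 43.1% where C8g stands at 83.9%.

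The anticoagulant genes spanned both ends of the range. Proc, protein C, which inactivates factors V and VIII, was at 283 and 261 RPKM in flox livers on chow and high fat and at 77.4 and 77.8 RPKM in knockout livers. Its changes of -1.86 and -1.73 were the second largest fall on chow and the third on high fat among the 42 genes. Its cofactor protein S, Pros1, was at 14.1, 16.8, 13.1 and 14.3 RPKM (-0.10 and -0.22), so the ratio of Proc to Pros1 was 20.1 and 15.5 in flox and 5.93 and 5.45 in knockout livers. Antithrombin, Serpinc1, was at 912, 760, 877 and 701 RPKM and changed by -0.06 and -0.12. Heparin cofactor II, Serpind1, changed by -0.33 and -0.64, and protein Z, Proz, by -0.43 and -0.66.

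In the contact and kinin route 0 of 5 genes fell on either diet, where 1.37% of all genes fell on chow and 1.86% on high fat. A count of 0 among 5 therefore does not set the route apart, and its medians were -0.39 and -0.74. F12, the protease that starts it, was at 228, 225, 127 and 112 RPKM, with changes of -0.84 and -0.99, just short of 2-fold on high fat (-1.00004 when 0.1 RPKM was added in place of 1, which passed). Prekallikrein, Klkb1, changed by -0.56 and -0.94, and its neighbour F11, 4.66 kb away, by -0.39 and -0.74. The kininogen genes Kng1 and Kng2, adjacent copies whose reads may be shared, changed by -0.27 and -0.34 and by -0.32 and -0.23. Among 4 fibrinolysis genes Plg alone fell, on high fat only and barely (-1.004, and -0.995 with 5 RPKM added, which did not pass), with levels of 630, 671, 428 and 334 RPKM for this precursor of plasmin. Cpb2, which protects fibrin from plasmin, changed by -0.85 and -0.95, Hrg, histidine-rich glycoprotein, by -0.36 and -0.91, and the plasmin inhibitor Serpinf2 by -0.31 and -0.63.

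Diet alone was compared within each genotype. So few of all genes passed 2-fold that counts of 0 or 1 among 42 do not set these genes apart. In flox livers Cfd rose and 0 of 42 fell, where 0.213% of 10322 genes rose and 0.426% fell. In knockout livers 0 of 42 rose or fell, where 0.668% of 10328 genes rose and 0.794% fell. Without Cfd the changes ran from -0.64 (C8b) to 0.51 (F5) in flox and from -0.99 (C8b) to 0.52 (F5) in knockout livers. C8b in knockout livers passed 2-fold, at -1.004, when 0.1 RPKM was added in place of 1. The medians of the 42 were -0.10 and -0.19 and turned positive, to 0.0338 and 0.0906, once groups were scaled to equal sums with the 50 most abundant genes left out, so no direction is given for the set. The difference of knockout changes between diets passed 1 for Cfd alone (-2.89), beside 0.572% of 10319 genes below -1 and 0.659% above 1. The other 41 lay between -0.55 (C9) and 0.52 (C3).

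Other genes of these cascades were counted from lists, beside 1.37% of all genes that fell on chow and 1.86% on high fat. Of 29 measured complement genes outside the 42, 1 fell on chow and 3 on high fat, with medians of -0.04 and -0.13. Clusterin, Clu, an inhibitor of the pore, was at 1196 and 1161 RPKM in flox and at 356 and 535 RPKM in knockout livers (-1.74 and -1.12). C4a (-1.16) and the carboxypeptidase N subunit gene Cpn2 (-1.16) were the others on high fat. The C1q genes, made by macrophages, changed short of 2-fold, C1qa by 0.02 on chow and 0.40 on high fat and C1qc by -0.14 and 0.36. C1qb was at 52.0, 49.6, 51.9 and 86.4 RPKM, highest in the group where the summed macrophage markers, a list that includes the C1q genes, were highest. Of 15 further coagulation genes, Mug2 (-1.10) and Hgfac (-1.01) fell on chow and Serpine2 rose (1.03), and Mug1 (-1.32) and Hgfac (-1.14) fell on high fat. With 5 RPKM added, the changes of Serpine2 (0.67) and Hgfac (-0.95) on chow and of C4a (-0.57) on high fat did not pass. Mug1 and Mug2 are near copies whose reads may be shared. With groups scaled to equal sums leaving out the 50 most abundant genes, the changes of Mug2 (-0.95) and Hgfac (-0.86) on chow and of Clu (-0.81), C4a (-0.95), Cpn2 (-0.86) and Hgfac (-0.84) on high fat were short of 2-fold.

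The machinery that modifies or exports clotting factors was also listed. Of its 15 genes, 2 fell on each diet, P4hb (-1.60 and -1.37), an ER disulfide isomerase, and Furin (-1.29 and -1.16), a protease that trims proproteins, though Furin on high fat was at -0.87 after that rescaling. Ggcx and Vkorc1, the carboxylase and reductase of the vitamin K cycle that F2, F7, F9, F10, Proc, Pros1 and Proz need, changed by -0.21 and -0.66 and by -0.19 and -0.40. Lman1, the cargo receptor of factor V, changed by -0.49 and -0.63. Among 26 measured regulators of liver plasma protein genes, 0 fell on either diet and Ddit3 rose on high fat (1.67). Since 1.37% of all genes fell on chow and 1.86% on high fat, a count of 0 among 26 does not set them apart. Their changes ran from -0.52 (Il6ra) to 0.37 (Ddit3) on chow, with a median of -0.05. On high fat the lowest were Il1r1 (-0.80) and Foxa2 (-0.77), and the median was -0.22. Hnf4a was at 95.4, 97.5, 86.9 and 72.2 RPKM, Cebpa at 146, 128, 123 and 97.9 RPKM, and Stat3 at 20.8, 18.0, 20.4 and 18.1 RPKM.

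Promoter windows are shown for members that fell on both diets and have an entry, with Fgb and Masp2 for contrast. They come from RefSeq (GRCm38.p6) and cover up to 250 bases before the gene start, 5′ to 3′ on the gene's strand. Bases that GENCODE M21 places inside the transcript were left out. A window was matched for 33 of 42 genes. Capitals mark matches, on either strand, to ACGTG, the core of the unfolded protein response element TGACGTGG, or to GTTAAT, part of the site of the liver factor HNF1.
Hc: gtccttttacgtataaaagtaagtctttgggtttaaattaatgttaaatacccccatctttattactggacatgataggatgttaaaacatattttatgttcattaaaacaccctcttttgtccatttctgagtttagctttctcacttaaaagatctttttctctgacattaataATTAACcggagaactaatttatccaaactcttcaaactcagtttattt
C8a: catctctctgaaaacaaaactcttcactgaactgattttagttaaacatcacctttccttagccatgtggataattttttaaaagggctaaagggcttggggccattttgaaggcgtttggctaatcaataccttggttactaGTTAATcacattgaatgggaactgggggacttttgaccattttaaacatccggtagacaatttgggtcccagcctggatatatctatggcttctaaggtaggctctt
F2: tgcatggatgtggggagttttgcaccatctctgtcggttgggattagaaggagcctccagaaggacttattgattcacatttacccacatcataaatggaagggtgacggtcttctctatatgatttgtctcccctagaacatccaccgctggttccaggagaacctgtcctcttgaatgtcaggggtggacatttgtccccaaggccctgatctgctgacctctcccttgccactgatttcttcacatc
F7: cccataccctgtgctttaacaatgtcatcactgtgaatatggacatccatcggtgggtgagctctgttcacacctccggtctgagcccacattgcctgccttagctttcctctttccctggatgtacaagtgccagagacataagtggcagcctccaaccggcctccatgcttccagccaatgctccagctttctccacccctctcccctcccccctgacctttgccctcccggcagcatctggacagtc
Fgb: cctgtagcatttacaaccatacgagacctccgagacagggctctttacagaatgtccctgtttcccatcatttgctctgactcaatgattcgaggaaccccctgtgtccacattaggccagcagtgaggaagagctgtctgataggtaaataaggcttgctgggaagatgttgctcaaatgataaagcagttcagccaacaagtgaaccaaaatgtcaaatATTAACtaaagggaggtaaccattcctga
Masp2: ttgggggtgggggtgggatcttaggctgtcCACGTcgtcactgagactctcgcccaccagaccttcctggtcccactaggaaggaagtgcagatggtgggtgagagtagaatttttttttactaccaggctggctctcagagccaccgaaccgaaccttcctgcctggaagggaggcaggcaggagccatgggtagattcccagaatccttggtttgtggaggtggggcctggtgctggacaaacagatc
Hc (chr2:35061439-35061662, minus strand), C8a (chr4:104876399-104876648, minus), F2 (chr2:91636458-91636707, minus), F7 (chr8:13025784-13026033, plus), Fgb (chr3:83049864-83050113, minus) and Masp2 (chr4:148602294-148602543, plus) lie just outside the annotated gene, and no other GENCODE gene overlaps these stretches. For F2 alone, the bases that follow the window were not found near the start of a GENCODE transcript, so its start is less certain.

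A member was counted if any window under its symbol matched, whereas the shares of all windows count each window singly. Counts and shares are therefore not like for like. In the full windows, ACGTG was found in 7 of 33 members (Masp2, C8g, Kng2, F10, Serpind1, Proz and Cpb2) and in 16.6% of all 32851 windows. It was in 0 of the 4 windows of genes that fell on both diets (Hc, C8a, F2 and F7). The longer TGACGTGG, which contains it, was in 0 of 33 and in 0.563% of all windows. GTTAAT was in 9 of 33 members (Hc, C8a, C8b, C4bp, Vtn, Fga, Fgb, F13b and Proz) and in 6.43% of all windows, beginning 74 bases before RefSeq's start in Hc, 107 in C8a and 29 in Fgb. For Hc that start lies 26 bases beyond the end of the printed stretch, since those bases are inside the GENCODE transcript. Its holders include both Hc and C8a, which fell on both diets, and C4bp, which changed by 0.07 and -0.05. These are matches of letters, not measured binding.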

How the data were processed

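RNA sequencing of liver was deposited as 4 tables with 1 RPKM value per gene and group, per the file headers. Each table was assigned to its group by the title part in its name. The submitters' processing notes list TopHat2 2.0.7, Cuffdiff 2.1.1 and build mm10. How libraries were scaled and combined, and with which annotation, is not given in the sources used here. Depth is unknown, so no interval or floor is given. The 23179 rows were summed by symbol, and 10351 genes with at least 1 RPKM in a group were kept. Changes are log2((a + 1)/(b + 1)), which understates the change of low genes. A gene listed at 0 in a group was left out of comparisons with it, and 0 of the 42 genes had a 0.

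Members and lists were chosen with earlier results of these data known. Any of the 42 genes may be named, and non-members come from the other lists (up to 4 with the largest change in a comparison, plus genes added to describe a role after their values were seen). Coordinates are from GENCODE M21 (GRCm38, the assembly of mm10), with 42 of 42 symbols matched. 9 alternatives were run. Steps were tested on simulated data. Python 3.11.15, numpy 2.4.6, pandas 2.3.3, scipy 1.17.1 and matplotlib 3.10.9 were used.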

Additional observations from a re-analysis of the deposited data

Results flagged for a closer look

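Cfd, the gene of complement factor D, rose with the diet in flox livers (2.81) and changed by -0.07 in knockout livers. Both knockout levels were under 1 RPKM, so no direction is read from -0.07. The knockout changes of Cfd on the 2 diets differed by -2.89 on the log2 scale. Each figure rests on 1 value per group, and the difference was not tested. The Cfd level was 9.76 RPKM in flox high fat and 0.193 to 0.533 RPKM in the other 3 groups.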

How the results depend on the processing

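No paired analysis was possible because the files hold 1 value per gene and group, and for the same reason no library could be left out. The 7 falls on chow passed 2-fold under all 9 alternatives. Of the 12 falls on high fat, Hc, C8a, Serping1, F7 and Proc did so under all 9, and Cfd under the 8 that kept it. Filtering at 10 RPKM removed Cfd, which left 0 rises with diet in flox livers and 0 genes past the threshold for the difference between diets. A threshold of 1.5-fold gave 17 falls on chow, 30 on high fat, 1 with diet in flox and 4 with diet in knockout livers, where 3.84%, 8.33%, 1.68% and 4.7% of all genes fell. Adding 0.1 RPKM gave 1 fall with diet in knockout livers, C8b, and 13 falls on high fat, with F12, and adding 5 RPKM gave 11, without Plg. Rescaling to a median log2 ratio of 0 gave 8 falls on high fat. It moved the medians to -0.62 for knockout on high fat, -0.0523 for diet in knockout livers and -0.00403 for the difference between diets. Rescaling without the 50 most abundant genes gave 6 falls on high fat and medians of -0.35 for knockout on chow, -0.48 for knockout on high fat, 0.0338 and 0.0906 for diet in flox and knockout livers, and 0.0256 for the difference. Over all genes, the falls and rises on high fat were 192 and 111 as deposited, 124 and 143 after the first rescaling and 90 and 192 after the second. On chow they were 141 and 26, 128 and 27, and 104 and 33. With the same rescalings the number of the 42 genes with a lower knockout level was 40 and 38 on chow (46.9% and 27.7% of all genes), and 38 and 35 on high fat (49.7% and 32%). The medians of all 9 cascades for knockout against flox were below 0 under each scaling. Depth and the spread between libraries are unknown, so how small a change these values can show is unknown as well.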

Other observations

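The share of summed RPKM held by each cascade does not depend on the scaling between groups. It does depend on the other genes in the sum, such as the hepatocyte markers, whose sum was also lower in knockout livers. The 4 fibrin genes held 0.934% on chow and 0.917% on high fat in flox livers, and 0.666% and 0.676% in knockout livers. The 5 procoagulant genes held 0.200%, 0.206%, 0.118% and 0.140% in the same order, and the 3 genes of C3 and the alternative route 0.258%, 0.272%, 0.130% and 0.210%. The 5 anticoagulant genes, of which Serpinc1 is the most abundant, held 0.319%, 0.306%, 0.289% and 0.301%, and the 5 contact and kinin genes 0.278%, 0.289%, 0.244% and 0.281%. A like share does not mean a like level, as the contact and kinin genes had a median knockout change of -0.74 on high fat.

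Genes that lie side by side did not always change by like amounts in knockout livers on chow. F7, F10 and Proz follow each other on chromosome 8, with gaps of 1.499 and 4.24 kb and changes of -1.45, -0.40 and -0.43. Cfb and C2 lie 0.086 kb apart on chromosome 17 and changed by -0.80 and -0.29. Hrg, Kng2 and Kng1 on chromosome 16 changed by -0.36, -0.32 and -0.27.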
